A study of Arabidopsis thaliana with 4 samples.

Results

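The nuclear genes for the light-harvesting proteins and subunits of the photosystems in Arabidopsis thaliana were compared between wild-type and atino80-5 seedlings. The 44 genes were taken by locus name and are 6 LHCA genes, 15 LHCB genes, 12 genes for subunits of photosystem I and 11 for subunits of photosystem II. All 44 were among the 23174 genes with a deposited value, and all 44 passed the minimum level for testing. Both genotypes were whole seedlings, 14 days old, that had grown on plates with a 16 h day and an 8 h night at 22 °C after at least 3 days of cold treatment. Polyadenylated RNA was sequenced from 2 libraries of each genotype. The mutant atino80-5 carries an allele of INO80, the ATPase of a chromatin remodelling complex that moves and restructures nucleosomes. The labels give neither the lesion nor the hour of harvest, nor how many plants made up a library, and both groups are whole seedlings with roots.

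Photosystem II and photosystem I work in series in the thylakoid membrane of the chloroplast, the first oxidising water and the second reducing ferredoxin. Each core, part of which is encoded in the chloroplast, is fed by an antenna of nuclear-encoded chlorophyll-binding proteins, the LHCB proteins for photosystem II and the LHCA proteins for photosystem I. In leaves these genes are among the most strongly transcribed, and they respond to light, to the circadian clock and to signals from the plastid.

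The genes whose values the comparison turns on lie in small families of similar copies, and 6 of their promoters are shown. Differences between copies of a family were not tested, and LHCB2.2, like LHCB2.3, was lower in both atino80-5 libraries. Each sequence is the 250 bases before the annotated start of the gene, 5′ to 3′ on the gene's own strand, from the TAIR10.1 assembly and its RefSeq annotation. LHCB4.3 and LHCB2.3 were called in the test, LHCB1.5 had the highest estimate after LHCB4.3, and LHCB4.1, LHCB2.2 and LHCB1.4 are a copy from each of the same families. LHCB4.3 lies at chr2:16745378-16745627 on the plus strand, LHCB4.1 at chr5:208616-208865 on the plus strand, LHCB2.3 at chr3:10255656-10255905 on the plus strand and LHCB2.2 at chr2:1800473-1800722 on the minus strand. LHCB1.5 lies at chr2:14523569-14523818 on the minus strand and LHCB1.4 at chr2:14524357-14524606 on the plus strand, so that this pair is transcribed away from each other with 1038 bases between their starts. Capitals mark matches to 5 short motifs, searched on both strands.
LHCB4.3: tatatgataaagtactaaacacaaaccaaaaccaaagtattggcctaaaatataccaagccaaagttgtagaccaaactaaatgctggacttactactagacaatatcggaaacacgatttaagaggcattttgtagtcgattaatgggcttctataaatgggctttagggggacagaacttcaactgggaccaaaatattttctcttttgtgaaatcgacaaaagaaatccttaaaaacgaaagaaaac
LHCB4.1: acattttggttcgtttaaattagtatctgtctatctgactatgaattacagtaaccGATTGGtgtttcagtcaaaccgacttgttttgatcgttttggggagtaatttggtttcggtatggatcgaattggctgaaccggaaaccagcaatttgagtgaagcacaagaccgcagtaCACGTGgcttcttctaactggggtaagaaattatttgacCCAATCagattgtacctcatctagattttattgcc
LHCB2.3: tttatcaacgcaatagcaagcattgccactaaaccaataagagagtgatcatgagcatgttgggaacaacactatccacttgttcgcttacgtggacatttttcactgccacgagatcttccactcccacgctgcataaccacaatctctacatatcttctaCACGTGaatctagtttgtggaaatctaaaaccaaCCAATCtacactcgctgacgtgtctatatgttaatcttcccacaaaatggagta
LHCB2.2: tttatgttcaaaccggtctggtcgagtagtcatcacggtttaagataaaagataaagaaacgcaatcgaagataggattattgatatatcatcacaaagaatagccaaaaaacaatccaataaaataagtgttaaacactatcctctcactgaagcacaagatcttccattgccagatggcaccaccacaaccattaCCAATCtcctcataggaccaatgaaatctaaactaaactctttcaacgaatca
LHCB1.5: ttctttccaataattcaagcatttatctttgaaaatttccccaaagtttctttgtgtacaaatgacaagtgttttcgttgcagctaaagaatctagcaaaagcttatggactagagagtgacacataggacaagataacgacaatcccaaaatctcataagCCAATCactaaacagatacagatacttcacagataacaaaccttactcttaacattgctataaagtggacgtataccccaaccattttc
LHCB1.4: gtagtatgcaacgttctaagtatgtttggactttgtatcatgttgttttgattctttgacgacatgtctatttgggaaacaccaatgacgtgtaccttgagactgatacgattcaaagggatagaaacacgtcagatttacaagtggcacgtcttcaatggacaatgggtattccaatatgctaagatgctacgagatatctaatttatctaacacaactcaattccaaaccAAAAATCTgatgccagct

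The motifs were the G-box CACGTG, bound by light-responsive bZIP and bHLH factors, the I-box GATAAG, the evening element AAAATATCT, the CCA1 binding site AAAAATCT, and CCAATC, reported near genes that the GLK factors activate. The window of LHCB4.3 held none of them, which is not particular to this gene. The windows of LHCA2, LHCB1.2, LHCB3, LHCB5, PSBR and others of the 44 also held none. The LHCB2.3 window held a G-box and a CCAATC, the LHCB2.2 and LHCB1.5 windows held a CCAATC, LHCB4.1 held a G-box and 2 copies of CCAATC, and LHCB1.4 held a CCA1 binding site. Across the 44 windows a G-box stood in 10 (22.7%), against 6.49% of 27438 windows of the same length before protein-coding genes. CCAATC stood in 11 (25%), 10 of them in front of antenna genes, against 10.2% of all windows. The I-box stood in 9 (20.5%, against 12.3%), the CCA1 site in 5 (11.4%, against 6.69%) and the evening element in 1 (2.27%, against 2.36%). A match is a run of letters and not a shown binding site. Some windows also overlap a neighbouring annotated gene, among those with a G-box the windows of LHCB6, LHCB7, PSAE2, PSAH2, PSBQ1 and PSBTN. The share of all windows that do so was not measured.

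The copies are also close in their transcripts, which bears on how reads could be assigned. Outside alignment gaps the coding sequences of LHCB1.1, LHCB1.2 and LHCB1.3, a cluster on chromosome 1, were 95.7% to 96.4% identical, those of LHCB1.4 and LHCB1.5 on chromosome 2 were 92.5% identical, and those of LHCB2.1 and LHCB2.2 were 92.9% identical. The same 90 coding bases, numbers 121 to 210 of LHCB1.3 counted from its start codon, show the spacing of the differences, with bases that differ from LHCB1.3 in capitals.
LHCB1.3: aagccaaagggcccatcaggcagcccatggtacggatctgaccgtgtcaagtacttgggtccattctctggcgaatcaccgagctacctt
LHCB1.1: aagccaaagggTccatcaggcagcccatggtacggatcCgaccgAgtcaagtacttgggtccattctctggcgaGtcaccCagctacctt
LHCB1.2: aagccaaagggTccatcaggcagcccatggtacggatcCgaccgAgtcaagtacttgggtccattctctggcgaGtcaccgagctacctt
LHCB1.4: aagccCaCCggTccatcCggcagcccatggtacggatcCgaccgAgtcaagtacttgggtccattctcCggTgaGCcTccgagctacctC
LHCB1.5: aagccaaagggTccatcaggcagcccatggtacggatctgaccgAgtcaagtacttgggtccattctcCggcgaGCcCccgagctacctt

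Of all 50-base windows of a transcript, 10.7% to 20.5% occurred unchanged in another LHCB1 transcript, with 17.3% for LHCB1.5 and 13.7% for LHCB1.4. The share was 22.7% for LHCB2.1, 28.2% for LHCB2.2 and 0 for LHCB2.3 and for the LHCB4 genes. Values of the LHCB1 copies, LHCB2.1 and LHCB2.2 are therefore uncertain where reads were shared between copies, while no 50-base run links LHCB4.3 or LHCB2.3 to another member of its family. By annotation 17 of the 44 genes overlap another gene, 16 of them at least 1 on the other strand: LHCA4, LHCA5, LHCB1.3, LHCB1.5, LHCB2.3, LHCB3, LHCB4.2, LHCB6, PSAE1, PSAE2, PSAG, PSAH1, PSAH2, PSAN, PSBR and PSBP1. PSBP1 and PSAD2 overlap a gene on the same strand, and the values of all 17 are uncertain by the reads of the other gene. How reads that matched more than 1 place were treated is not given in the sources used here.

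Reads assigned to genes, as recovered from the deposited values, ran from 13068214 (atino80-5 replicate 1) to 18406709 (wild type replicate 2). Sequencing depth itself is not given. The 44 genes took 10.7% and 10.8% of these assigned reads in wild type and 12.1% and 10.6% in atino80-5. INO80 itself (AT3G57300, chromosome 3) was still transcribed, at 4.28 and 4.54 FPKM (fragments per kilobase of gene, scaled for library depth) in wild type and 2.72 and 3.13 FPKM in atino80-5, and the difference did not pass the test (limma adjusted p = 0.117). INO80 overlaps AT3G57290 on the other strand. Green tissue was evident in every library, where 15 genes of carbon fixation summed to between 44625 and 67961 FPKM. All 12 root markers had reads, and of the 10 tested limma called none, while the authors' deposited table called PYK10 higher. Their summed level was 508 and 572 FPKM in wild type and 728 and 809.8 FPKM in atino80-5, most of it from PYK10. The part of tissue make-up in the results below was not tested, and in whole seedlings fewer cells of a type and less RNA per cell cannot be told apart. Nothing in the labels says that the 2 libraries of a genotype came from separate cultures, so the spread behind each p may be technical.

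**Figure D1:**
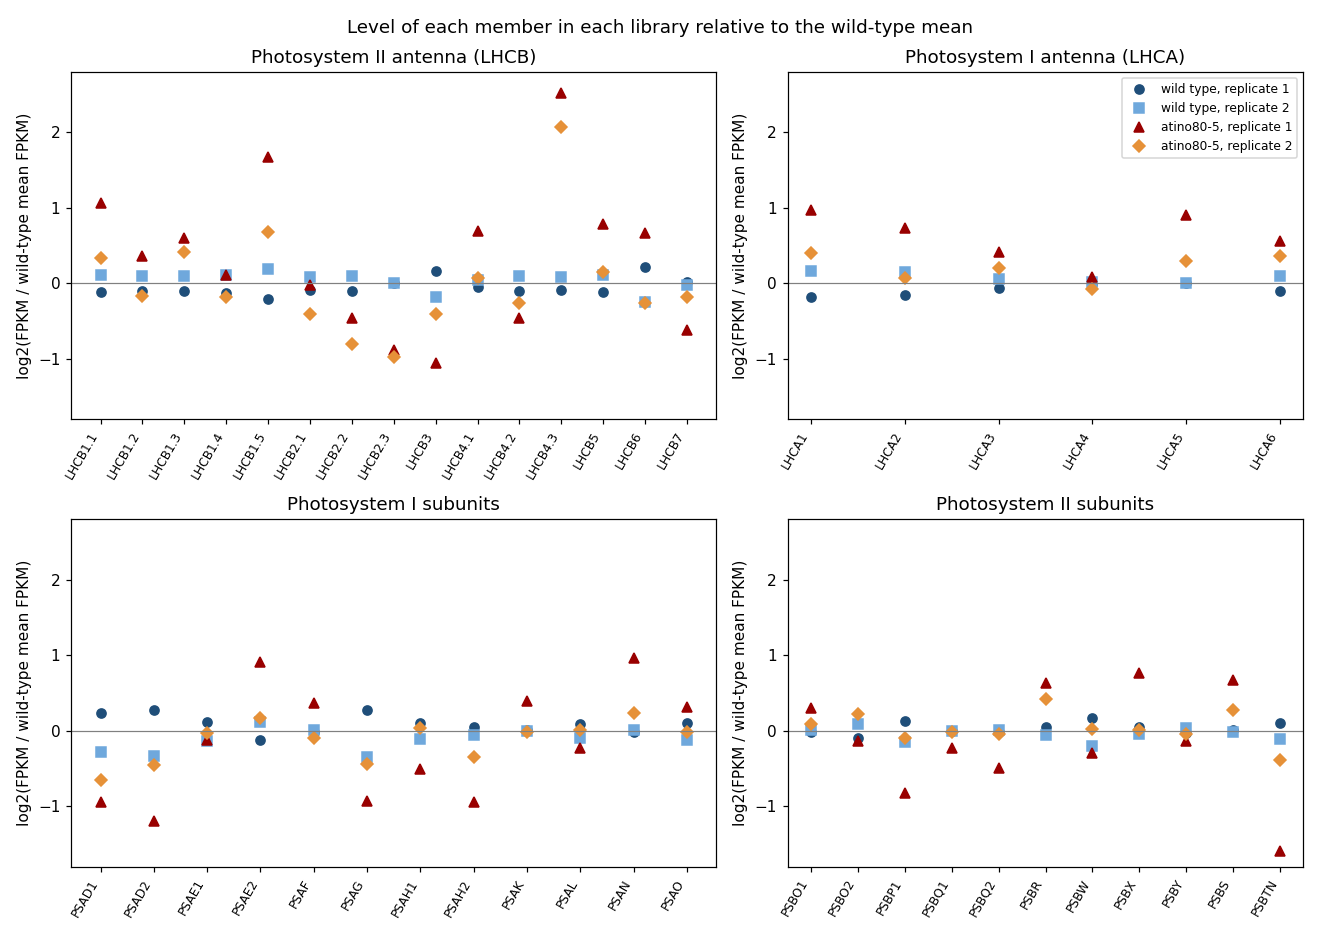
Level of each of the 44 genes in each library as log2 of its FPKM over the wild-type mean FPKM, 1 point per library, in 4 panels by complex. LHCB4.3 stands far above 0 in both atino80-5 libraries, LHCB2.3 stands below 0 in both at almost the same height, and atino80-5 replicate 1 is the outermost point for most genes.

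The comparison addresses which of these genes differ with the INO80 genotype. LHCB4.3, the gene for a rarer form of the minor antenna protein CP29, rose 4.98-fold, and LHCB2.3, a gene for a protein of the trimeric main antenna, fell 1.90-fold. The other 42 genes did not pass the test, and their estimates lay on both sides of 0. The test was limma on log2(FPKM + 1) over the 17642 genes that averaged 1 FPKM or more, with Benjamini-Hochberg adjusted p under 0.05. Over all tested genes it called 2.99% raised and 2.42% lowered, 5.41% together, and among the 44 it called 1 raised and 1 lowered, 4.55% together, a share near that of all genes. The median log2 difference was 0.07 over the 44 and 0.03 over all tested genes. The groups did not overlap for 28 of the 44, 15 of them higher and 13 lower in atino80-5, against 62.2% of all tested genes (33.4% higher and 28.8% lower).

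In the authors' deposited table, a DESeq2 test, 4 of the 44 were higher and 4 lower at an adjusted p under 0.05, 18.2% together, where 5.85% and 3.65% of the 20478 genes with an adjusted p were called, 9.5% together. Higher there were LHCA1, LHCB1.1, LHCB1.5 and LHCB4.3, and lower were LHCB2.2, LHCB2.3, PSAD1 and PSBTN. The authors' adjusted p for LHCB4.3 was 6.99e-19, and for LHCB2.3 it was 0.000185.

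LHCB4.3 (AT2G40100, chromosome 2) had 20.1 and 22.7 FPKM in wild type, from 292 and 444 reads, against 123 and 90.2 FPKM in atino80-5, from 1402 and 1253 reads. Both mutant libraries lay far above both wild-type libraries, beyond the spread within either genotype. The log2 difference was 2.25 (SE 0.21, 95% interval 1.75 to 2.75, limma adjusted p = 0.00523), from 21.4 ± 1.81 to 107 ± 23.3 FPKM (SD, n = 2). It was called under each of the 16 other settings of the limma fit, with adjusted p between 2.65e-05 and 0.0126. CP29 is a monomeric protein between the trimers and the core of photosystem II, and this form is known to be induced in strong light.

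Its relatives LHCB4.1 and LHCB4.2, which encode the usual forms of CP29, did not pass the test. LHCB4.1 stood at 1712 and 1826 FPKM in wild type and 2860.1 and 1855 FPKM in atino80-5, and LHCB4.2 at 626 and 715 FPKM in wild type against 488 and 559.5 FPKM in atino80-5. For both genes the genotypes did not overlap, LHCB4.1 being higher and LHCB4.2 lower in atino80-5, but the gap between the nearest libraries of LHCB4.1 was small. Per exon length of the reference annotation, LHCB4.3 made up 0.561% and 0.583% of the summed level of the 3 LHCB4 genes in wild type and 2.298% and 2.37% in atino80-5. It remained the least transcribed of the 3 in every library. The authors' length of LHCB4.3 was shorter than its exons (975 against 1448 bases), so these shares are uncertain and may be too low.

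LHCB2.3 (AT3G27690, chromosome 3) had 168 and 168 FPKM in wild type, from 2661 and 3598 reads, against 91.1 and 85.6 FPKM in atino80-5, from 1134 and 1300 reads. Within each genotype the libraries were close together, and the genotypes were well apart. The log2 difference was -0.92 (SE 0.17, 95% interval -1.34 to -0.50, limma adjusted p = 0.0379). The call rests on having both wild-type libraries: the adjusted p was 0.323 without wild type replicate 1 and 0.275 without replicate 2, in a range over all settings of 0.00576 to 0.323, while the estimate stayed below 0 in each. The gene overlaps AT3G27700 on the other strand. Since it is unknown whether the counting used strand, reads from the stretch that this pair shares cannot be told apart. The length of that stretch was not measured.

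LHCB2 proteins carry the phosphorylation that lets the antenna move between the photosystems in state transitions. LHCB2.2 stood at 558 and 646 FPKM in wild type and 436 and 345 FPKM in atino80-5, without overlap (log2 difference -0.63, SE 0.23, limma adjusted p = 0.152). It was called after quantile normalisation (0.0271), in a range over settings of 0.0271 to 0.670, and it is lower in the authors' deposited table (adjusted p = 0.0405). LHCB2.1 stood at 489 and 551 FPKM in wild type against 509 and 391 FPKM in atino80-5, and its genotypes overlapped. With the reads of LHCB2.1 and LHCB2.2 summed into 1 gene, the log2 difference was -0.42 (SE 0.25, limma adjusted p = 0.308).

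LHCB1 encodes the bulk of the trimeric antenna. LHCB1.5 (AT2G34420, chromosome 2) stood at 5859.8 and 7728 FPKM in wild type and at 21648 and 10846 FPKM in atino80-5. Both mutant libraries were higher than both wild-type libraries, and they differed from each other 2.00-fold. With that spread the difference did not pass (log2 difference 1.19, SE 0.42, 95% interval 0.16 to 2.21, limma adjusted p = 0.147), while the authors' deposited table called it higher (log2 fold change 1.26, adjusted p = 0.000510). In limma it was called without atino80-5 replicate 2 (0.0111), a fit in which 1 mutant library stands for the genotype, and its adjusted p ran from 0.0111 to 0.673 over the settings.

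LHCB1.4, its neighbour on chromosome 2, stood at 622 and 735 FPKM in wild type and 729 and 598 FPKM in atino80-5, with overlapping genotypes. The ratio of LHCB1.5 to LHCB1.4, per exon length, was 12.3 and 13.7 in the wild-type libraries and 38.7 and 23.6 in the atino80-5 libraries, and the difference between the copies was not tested. The authors' length of LHCB1.4 was 1008 bases against 1312 of exons, while for LHCB1.5 both were 1045. These ratios may therefore be too high in every library. With both copies summed the log2 difference was 1.11 (SE 0.42, limma adjusted p = 0.160).

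In the cluster on chromosome 1, LHCB1.3 was the most abundant copy, at 10087 and 11619 FPKM in wild type and 16439.6 and 14519 FPKM in atino80-5. LHCB1.1, the CAB2 gene whose promoter has long served as a clock reporter, stood at 1848 and 2165 FPKM in wild type against 4203 and 2523 FPKM in atino80-5. Both copies were higher in each mutant library than in either wild-type library, and neither passed (limma adjusted p = 0.329 and 0.223). LHCB1.2 stood at 1832 and 2097 FPKM in wild type against 2521 and 1744 FPKM in atino80-5, with overlap. The summed reads of the 3 copies gave a log2 difference of 0.50 (SE 0.33, limma adjusted p = 0.364). Per exon length, the summed level of the 5 LHCB1 genes was 16.4 and 17.6 times that of the 3 LHCB2 genes in wild type and 44.8 and 36.8 times in atino80-5, values given as a description.

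**Figure D2:**
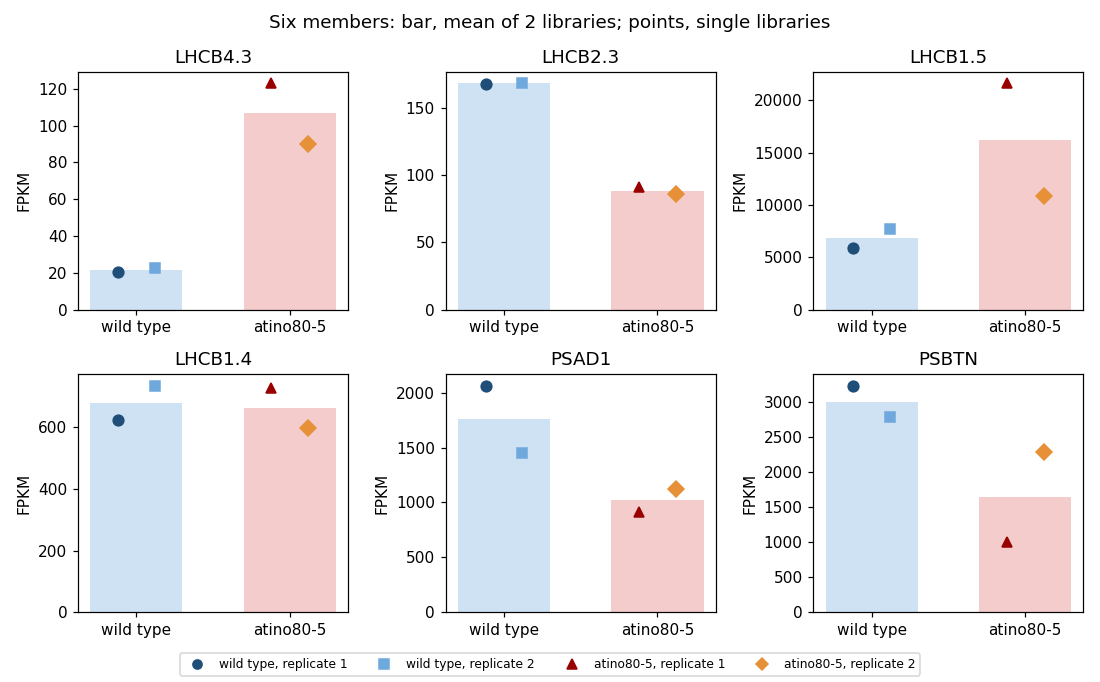
FPKM of 6 genes by genotype, with bars for the mean of 2 libraries and points for single libraries, each axis starting at 0. LHCB4.3 and LHCB2.3 separate the genotypes with little spread inside them, LHCB1.5 and PSBTN vary widely between the mutant libraries, PSAD1 is lower in both of them, and LHCB1.4 overlaps.

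Among the remaining antenna genes of photosystem II, LHCB3, also for a protein of the trimeric antenna, stood at 3180.3 and 2498 FPKM in wild type and 1366 and 2139 FPKM in atino80-5. The mutant libraries were lower than both wild-type libraries, and the difference did not pass (log2 difference -0.72, SE 0.32, limma adjusted p = 0.205). LHCB5, the gene for CP26, stood at 1530.2 and 1781 FPKM in wild type against 2846 and 1831 FPKM in atino80-5, without overlap but with atino80-5 replicate 2 close to wild type. LHCB6, the gene for CP24, was uneven within both genotypes, at 1223 and 885 FPKM in wild type and 1668 and 875 FPKM in atino80-5. LHCB7, a rarely transcribed member of the family, stood at 9.80 and 9.56 FPKM in wild type against 6.32 and 8.53 FPKM in atino80-5. Over the 15 LHCB genes the log2 differences ran from -0.92 to 2.25 with a median of 0.10, and 8 estimates were above and 7 below 0.

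The LHCA genes encode the antenna of photosystem I, a belt on one side of its core. All 6 estimates were above 0, though that of LHCA4 was near 0 and turned negative under all 4 other scalings (median centring, quantile normalisation, total reads, length trend removed) and without replicate 1 of either genotype, and that of LHCA3 after quantile normalisation. None passed the test, and the median log2 difference was 0.43. Over all tested genes 9335 of 17642 estimates were above 0. After quantile normalisation the 6 LHCA estimates were lower, from -0.33 for LHCA4 to 0.43 for LHCA1. LHCA1 stood at 1501 and 1911 FPKM in wild type and 3331 and 2249.9 FPKM in atino80-5 (log2 difference 0.69, SE 0.31, limma adjusted p = 0.205). It was called without atino80-5 replicate 2 (0.0256; 0.0256 to 0.804 over the settings) and is higher in the authors' deposited table (adjusted p = 0.0382). LHCA2 stood at 1373 and 1695 FPKM in wild type against 2544 and 1609 FPKM in atino80-5 and overlapped between genotypes, as LHCA4 did at 1764 and 1796 FPKM in wild type against 1885 and 1686 FPKM in atino80-5. LHCA3 stood at 2266 and 2456 FPKM in wild type against 3145 and 2709 FPKM in atino80-5, without overlap.

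LHCA5 and LHCA6 differ from the other LHCA genes in role and level: their proteins are scarce and link photosystem I to the chloroplast NDH complex of cyclic electron flow. LHCA5 stood at 98.5 and 98.8 FPKM in wild type and 185 and 121 FPKM in atino80-5, and LHCA6 at 60.9 and 69.9 FPKM in wild type against 96.6 and 84.2 FPKM in atino80-5. Both were higher in each mutant library than in either wild-type library, with limma adjusted p of 0.183 and 0.174.

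**Figure D3:**
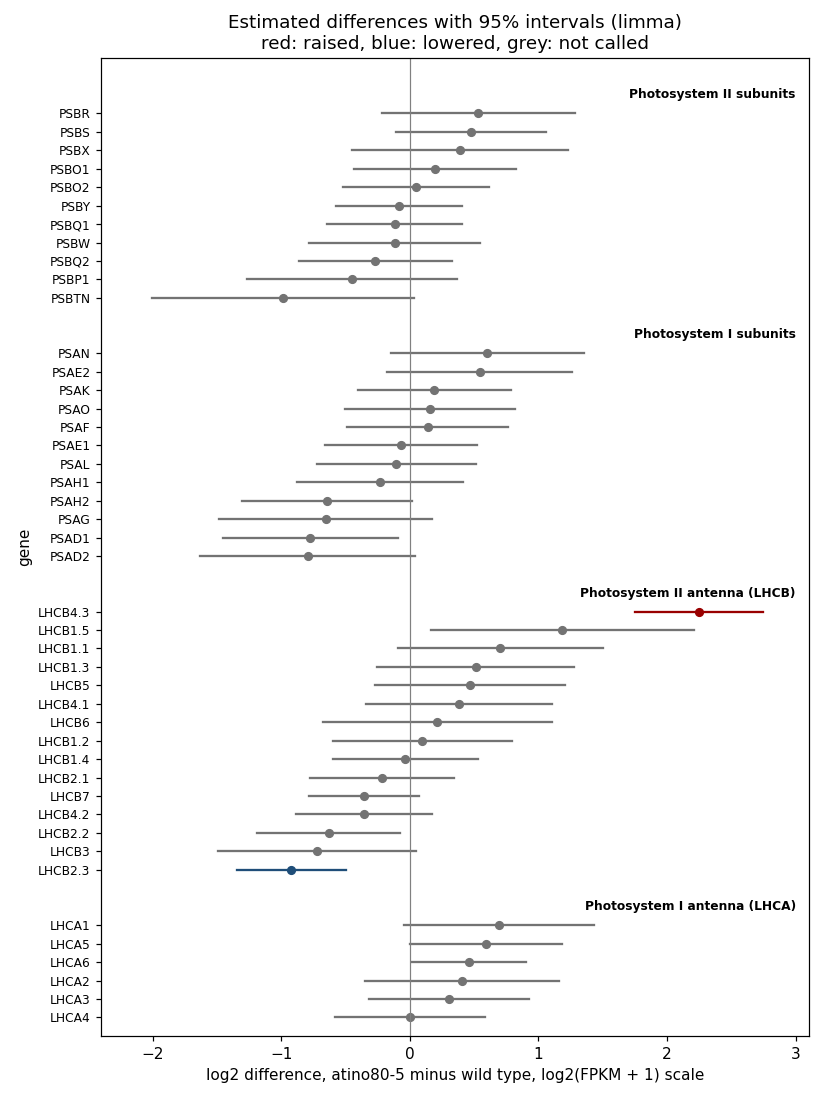
Log2 difference of each of the 44 genes, atino80-5 minus wild type on the log2(FPKM + 1) scale, with the 95% interval of the limma fit, by complex. The interval of LHCB4.3 lies wholly above 1, that of LHCB2.3 wholly below 0, and most of the others cross 0.

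Of the 12 genes for photosystem I subunits none passed, with log2 differences from -0.79 to 0.60 and a median of -0.09. The lowest were the genes of the stromal ridge protein PSAD, which docks ferredoxin. PSAD1 (AT4G02770) stood at 2063 and 1452 FPKM in wild type and 914 and 1123 FPKM in atino80-5, and PSAD2 at 1345 and 881 FPKM in wild type against 485 and 810.1 FPKM in atino80-5. Both copies were lower in each mutant library than in either wild-type library, and in both the wild-type libraries also differed from each other, 1.42-fold for PSAD1 and 1.53-fold for PSAD2. The log2 differences were -0.77 (SE 0.28, limma adjusted p = 0.152) and -0.79 (SE 0.34, limma adjusted p = 0.200), and the authors' deposited table called PSAD1 lower (adjusted p = 0.0123) but not PSAD2 (0.0507).

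The genes of PSAE, the neighbour of PSAD in the stromal ridge, showed another pattern. PSAE1 stood at 1802 and 1519 FPKM in wild type and 1524 and 1635 FPKM in atino80-5, with overlap, and the less transcribed PSAE2 stood at 376 and 442 FPKM in wild type against 767 and 460.1 FPKM in atino80-5, higher in both mutant libraries (limma adjusted p = 0.281). Per exon length PSAE2 made up 19.1% and 24.7% of the PSAE level in wild type and 36.3% and 24.1% in atino80-5, so that the shares overlapped. PSAF and PSAN, on the lumen side where plastocyanin docks, stood at 1141 and 1168 FPKM in wild type against 1490.2 and 1084 FPKM in atino80-5 and at 1317 and 1334 FPKM in wild type against 2595 and 1563 FPKM in atino80-5. Only PSAN of this pair was without overlap, and neither passed.

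PSAG and PSAK flank the antenna belt of photosystem I. PSAG stood at 5228 and 3372 FPKM in wild type and 2249 and 3165 FPKM in atino80-5, lower in the mutant without overlap, while PSAK stood at 891 and 882 FPKM in wild type against 1166 and 879 FPKM in atino80-5, with overlap. On the opposite side, where the mobile antenna docks, PSAH1 stood at 885 and 769 FPKM in wild type against 584 and 846 FPKM in atino80-5, PSAH2 at 1099.9 and 1015 FPKM in wild type against 549 and 829 FPKM in atino80-5, PSAL at 2370.0 and 2092 FPKM in wild type against 1904 and 2255 FPKM in atino80-5 and PSAO at 2771 and 2372 FPKM in wild type against 3208 and 2541 FPKM in atino80-5. PSAH2 was the 1 gene of these 4 without overlap, lower in atino80-5 (log2 difference -0.65, SE 0.27, limma adjusted p = 0.193).

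Of the 11 genes for photosystem II subunits none passed, with log2 differences from -0.99 to 0.53 and a median of -0.08. The lowest estimate was that of PSBTN (AT3G21055), the gene of a small lumen protein, which stood at 3232 and 2782 FPKM in wild type and 999 and 2294 FPKM in atino80-5. Both mutant libraries were below both wild-type libraries, and they differed from each other 2.297-fold, more than for any other of the 44 genes. The limma adjusted p was 0.194 (0.00418 without atino80-5 replicate 2, 0.00418 to 0.634 over the settings), and it was 0.0494 in the authors' deposited table.

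The oxygen-evolving complex on the lumen side is held by PSBO, PSBP and PSBQ. PSBO1 stood at 2868 and 2915 FPKM in wild type and 3577 and 3083 FPKM in atino80-5, and PSBO2 at 496 and 568 FPKM in wild type against 485 and 622 FPKM in atino80-5. PSBP1 stood at 4048 and 3340.1 FPKM in wild type against 2089 and 3472 FPKM in atino80-5, with atino80-5 replicate 2 between the wild-type libraries. PSBQ1 stood at 694 and 693 FPKM in wild type against 593 and 689 FPKM in atino80-5 and PSBQ2 at 797 and 809.9 FPKM in wild type against 571 and 781 FPKM in atino80-5, in both cases with 1 mutant library close to wild type. The limma adjusted p of these 5 genes lay between 0.413 and 0.907.

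PSBR, which helps to bind PSBP and PSBQ, was per exon length the most transcribed of the 44 genes in both genotypes, at 10372 and 9589 FPKM in wild type and 15548 and 13415 FPKM in atino80-5. The genotypes did not overlap, and the difference did not pass (log2 difference 0.53, SE 0.31, limma adjusted p = 0.306). As deposited, mean FPKM was higher for LHCB1.3 than for PSBR in both genotypes, and higher for LHCB1.5 in atino80-5. PSBS, the sensor of lumen acidity that triggers the dissipation of excess light as heat, stood at 716 and 699 FPKM in wild type against 1125 and 858 FPKM in atino80-5, also without overlap (limma adjusted p = 0.254). The small membrane subunit genes PSBW and PSBX overlapped between genotypes, PSBW with 2306 and 1786 FPKM in wild type against 1672 and 2090.4 FPKM in atino80-5 and PSBX with 4834 and 4531 FPKM against 7996 and 4708 FPKM. A further gene of this kind, PSBY, had 488 and 510.2 FPKM in wild type against 457 and 486 FPKM in atino80-5, lower without overlap.

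The order of levels was led by the same genes in both genotypes. Per exon length of the reference annotation, PSBR, LHCB1.3 and LHCB1.5 were the first 3, at 12654, 9212 and 6794 in wild type and 18360.5, 13139 and 16248 in atino80-5, in FPKM rescaled to exons. Within atino80-5 the libraries of LHCB1.5 spanned those of both other genes, so that its place there does not differ from theirs beyond the spread. At the other end stood LHCA6, LHCB4.3 and LHCB7 in wild type, at 68.9, 14.4 and 13.5. In atino80-5 LHCB4.3 at 71.8 was close to LHCB2.3 at 64.3, where in wild type LHCB2.3 stood at 122. The authors' lengths of both genes were shorter than their exons, so these rescaled levels may be too low. Mean FPKM as deposited put LHCB1.3 first in wild type, at 10853 against 9981 for PSBR. In atino80-5 it put LHCB1.5 first, at 16247.5 against 15479.5 for LHCB1.3 and 14481.5 for PSBR.

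The mutant libraries differed from each other more than the wild-type libraries did. The median absolute log2 difference between replicates over the 44 genes was 0.19 in wild type and 0.43 in atino80-5, against 0.12 and 0.25 over all tested genes. In 39 of the 44 genes atino80-5 replicate 1 lay farther from the wild-type mean than replicate 2 did, against 70.6% of all tested genes. Without atino80-5 replicate 2, 18 of the 44 genes were called, 10 higher and 8 lower, 40.9% where 39.1% of all genes were called. Without atino80-5 replicate 1, LHCB4.3 and LHCB2.3 were called, 4.55% where 8.85% of all genes were. Without wild type replicate 1 or replicate 2 only LHCB4.3 was, 2.27% where 2.51% and 3.33% of all genes were.

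**Figure D4:**
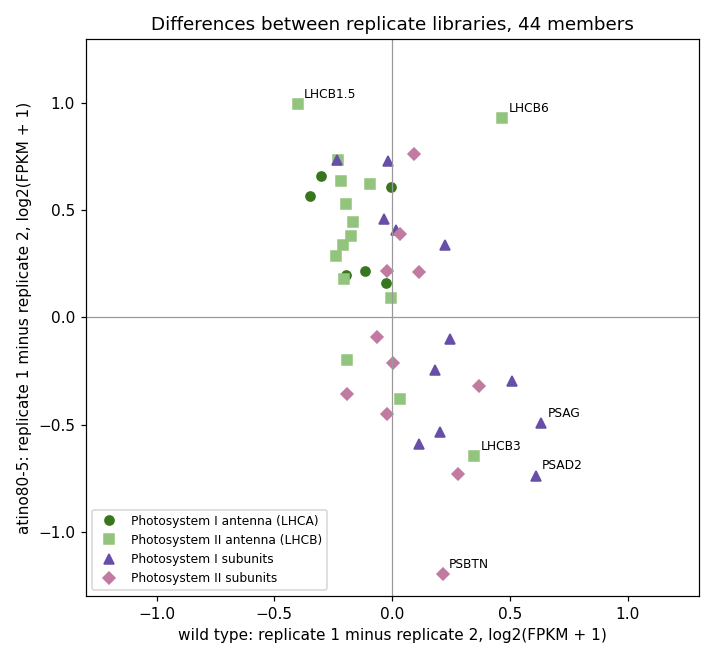
Difference between replicate 1 and replicate 2 in wild type (horizontal) and in atino80-5 (vertical) for the 44 genes, in log2(FPKM + 1), with symbols by complex. Antenna genes gather at the upper left and PSAD2, PSAG, LHCB3 and PSBTN at the lower right.

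These differences between replicates went opposite ways in the 2 genotypes for many of the genes. Across the 44 genes the difference of replicate 1 minus replicate 2 in wild type and that in atino80-5 correlated at Pearson r = -0.56, against -0.03 across all 17642 tested genes. These are correlations across genes within the same 4 libraries, and genes are not independent. PSAG, PSAD2 and LHCB3 were higher in replicate 1 of wild type and lower in replicate 1 of atino80-5, while LHCB1.5, LHCA1 and LHCA2 were the reverse.

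Other genes of photosynthesis were read from lists made by role, where limma called 2.99% of all tested genes raised and 2.42% lowered, and the authors' deposited table called 5.85% higher and 3.65% lower. Of 24 genes of chlorophyll synthesis limma called 1 lowered and none raised, with a median log2 difference of 0.33. The authors' deposited table called 4 of the 24 higher (HEMA2, GSA1, CHLM and DVR) and 3 lower (PORA, GUN4 and CAO). The 1 that fell in limma was PORA, a light-repressed protochlorophyllide reductase with few reads. It stood at 2.23 and 2.33 FPKM in wild type, from 63 and 89 reads, and 0.630 and 0.295 FPKM in atino80-5, from 14 and 8 reads. On the log2(FPKM + 1) scale, which understates differences of such low genes, the log2 difference was -1.17 (SE 0.17, limma adjusted p = 0.0181). The log2 fold change in the authors' deposited table was -2.33. Of 8 genes for insertion of the antenna proteins and for state transitions 1 fell in limma and in the authors' deposited table, LTD, whose product guides antenna proteins inside the chloroplast. LTD stood at 135 and 149 FPKM in wild type and 63.3 and 68.6 FPKM in atino80-5 (log2 difference -1.10, SE 0.18, limma adjusted p = 0.0229), with adjusted p of 0.142 and 0.195 without wild type replicate 1 or replicate 2. It overlaps AT1G07693 and AT1G50910 on the other strand.

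In limma no gene passed among 13 for electron transport and the ATP synthase (median log2 difference 0.36), 15 of carbon fixation (0.44) or 7 relatives of the antenna proteins (0.10). At an unadjusted limma p under 0.05 these lists held 3, 4 and 1 genes, each higher in atino80-5. Of the 17642 tested genes 2617 were higher and 2144 lower at such a p, 27% together. The authors' deposited table called 3 of the 13 higher (FD1, FD2 and PETE2), 5 of the 15 higher (PGK1, HCEF1, PDTPI, CP12-1 and GAPB), none of the 7, and none of these lists' genes lower. FD2 also passed in limma voom on the recovered reads (adjusted p = 0.0474) and without atino80-5 replicate 2 (0.00409), in a range over the settings of 0.00409 to 0.516. The 2 farthest from 0 in each list were FD2 and PETE2, for the electron carriers ferredoxin and plastocyanin, PGK1 and CP12-1 of the Calvin cycle, and ELIP1 and SEP1 of the antenna relatives. FD2 stood at 979.6 and 1006 FPKM in wild type and 2632 and 1587 FPKM in atino80-5, and PETE2 at 2377 and 1990.4 FPKM in wild type against 5539 and 2857 FPKM in atino80-5. The other 4 ranged from 6.82 to 1127 FPKM in wild type replicate 1, with log2 differences of 0.85 for PGK1, 0.78 for CP12-1, 0.66 for ELIP1 and 0.52 for SEP1. All 6 were higher in both mutant libraries than in either wild-type library. They were picked as the farthest from 0, so this separation is no separate result, and 33.4% of all tested genes were higher in this way. Other genes of these lists overlapped, such as ATPC1, RBCS2B and LIL3:2.

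Of 10 regulators of photosynthesis genes 1 fell in limma and in the authors' deposited table, CGA1, a GATA factor that promotes greening, from 4.28 and 3.18 FPKM in the wild-type libraries to 1.01 and 1.57 FPKM in the atino80-5 libraries (log2 difference -1.05, SE 0.20, limma adjusted p = 0.0372, 0.141 without wild type replicate 1 and 0.0601 with no filter on low values). These CGA1 values rest on few reads, 108 and 108 in wild type and 20 and 38 in atino80-5. GLK1, a factor that activates antenna and chlorophyll genes, stood at 44.3 and 49.8 FPKM in wild type and 63.4 and 37.3 FPKM in atino80-5, with overlap. Of 11 clock genes 8 reached the minimum level, of which 2 fell in limma. The authors' deposited table called 5 of the 11 lower, CCA1, LHY, PRR9, PRR7 and PRR5. CCA1, the morning factor that binds antenna promoters, stood at 3.76 and 3.62 FPKM in wild type and 0.740 and 1.06 FPKM in atino80-5 (limma adjusted p = 0.00987). Its reads were 181 and 235 in wild type and 28 and 49 in atino80-5. PRR7 stood at 27.5 and 26.5 FPKM in wild type against 11.98 and 16.2 FPKM in atino80-5 (limma adjusted p = 0.0477). It was called in 11 of 16 other settings, and not without wild type replicate 1 (0.240) or replicate 2 (0.176), with a pseudocount of 0.1 (0.0512), with no filter (0.0640) or with the length trend removed (0.0578). LHY, below the minimum level, stood at 1.06 and 1.21 FPKM in wild type against 0.293 and 0.433 FPKM in atino80-5. Antenna transcripts cycle over the day and each library is 1 time point, so a shift in timing and a change in level cannot be told apart.

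The root markers, a list to watch the make-up of the seedlings, had 5 estimates above and 5 below 0 among the 10 tested, with a median log2 difference of -0.07. PYK10, an enzyme of root ER bodies, stood at 323 and 372 FPKM in wild type and 500.1 and 601 FPKM in atino80-5 (limma adjusted p = 0.129, and 0.0196 in the authors' deposited table), and NRT2.1, a nitrate transporter, at 2.12 and 2.19 FPKM in wild type against 1.27 and 0.705 FPKM in atino80-5 (limma adjusted p = 0.0881). NRT2.1 was called lower in 4 of 15 other settings, total-read scaling among them (0.0354).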

How the data were processed

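PolyA-selected RNA was sequenced as dUTP-stranded libraries, per the labels. The submitters' notes list HISAT2, featureCounts, DESeq2 and TAIR10 with no version or setting. The authors deposited FPKM per library, and a DESeq2 table with a mean normalised signal, log2 fold changes with errors, a test score, and raw and adjusted p-values. Rescaling FPKM by that mean signal gave whole reads for 100% of 92696 values (tolerance 0.01), so the FPKM the authors deposited are scaled by size factors. Their gene lengths were at the median 1.19 times the exons of TAIR10.1, so that different genes were compared per exon length.

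Genotypes were compared with limma 3.58.1 (R 4.3.3, trend option, genotype as the only term) on log2(FPKM + 1), which understates differences of low genes. Folds are ratios of mean FPKM. An exact permutation of 2 against 2 libraries cannot pass 0.05, and limma's p-values borrow the spread of other genes. The code was tested on simulated reads. DESeq2 and edgeR were not run. Promoters, coding sequences and overlaps come from RefSeq's TAIR10.1 (44 of 44 loci matched), aligned with Biopython 1.88. Named are any of the 44 genes, INO80, CCA1, LHY and GLK1, and of each list up to 4 called genes or the 2 farthest from 0. Other list genes were named, and ratios between copies chosen, after their values were seen. The genes and lists were chosen with earlier results of these data known.

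Alternatives were other pseudocounts, filters and scalings, removal of the gene-length trend, limma without trend, robust or as voom on the recovered reads, the replicate number as a block, each library left out, near-identical copies summed, and the authors' own test.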

Additional observations from a re-analysis of the deposited data

How the results depend on the processing

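LHCB4.3 was called in all 16 alternatives of the limma fit and LHCB2.3 in 14 of them. Of the 44 genes 2 were called in every alternative that kept all 4 libraries, with the exceptions of quantile normalisation (3) and of the authors' own test (8). Leaving out 1 library gave 1 to 18 called genes of the 44, and 443 to 6896 of all tested genes. The count over all genes was 572 with a minimum of 5 FPKM and 1617 with scaling to total reads, which moved the median of all genes from 0.03 to -0.16. The median log2 difference of the 44 was -0.28 after quantile normalisation, -0.15 after total-read scaling, -0.0645 with the length trend removed, and -0.0118 to 0.21 with 1 library left out. Relative to the median of all genes it stood at 0.043 as reported, 0.0086 under total-read scaling, -0.27 after quantile normalisation and -0.067 with the length trend removed. With a minimum of 5 FPKM, where the median of all genes was 0.11, it stood at -0.035. It stood at -0.034 without atino80-5 replicate 1 and 0.17 without atino80-5 replicate 2. INO80 ranged from -0.54 to -0.39 with 1 library left out and passed without atino80-5 replicate 2. In fits without 1 library the lone sample of its genotype is assumed to vary like the others. The cause of these shifts was not tested.

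With the replicate number as a block, 1985 genes were called in all and 2 of the 44. The labels do not say what the number marks, and replicates with the same number did not deviate together (r = -0.03 over 17642 genes), so the numbers are not taken to pair the libraries.

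Estimates of genes that did not pass changed sign as follows, all as log2 differences. Quantile normalisation gave -0.21 for GLK1, -0.0135 for LHCA3, -0.33 for LHCA4, -0.27 for LHCB1.2, -0.0935 for LHCB1.3, -0.0873 for LHCB6, -0.21 for PSAF, -0.0723 for PSAK, -0.0781 for PSAO, -0.30 for PSBO2 and -0.0382 for PSBR. Total-read scaling gave -0.16 for GLK1, -0.22 for LHCA4, -0.12 for LHCB1.2, -0.004 for LHCB6, -0.0803 for PSAF, -0.0284 for PSAK, -0.0641 for PSAO, -0.0198 for PSBO1 and -0.17 for PSBO2. Removal of the length trend gave -0.10 for LHCA4, -0.0623 for LHCB1.2, -0.005 for PSAF, -0.0046 for PSAO and -0.0667 for PSBO2, and median centring gave -0.0108 for LHCA4. With 1 library left out the estimates ran from -0.32 to 0.42 for GLK1, -0.0779 to 0.0825 for LHCA4, -0.17 to 0.36 for LHCB1.2, -0.18 to 0.11 for LHCB1.4, -0.25 to 0.68 for LHCB6, -0.19 to 0.0551 for PSAE1, -0.0901 to 0.37 for PSAF, -0.50 to 0.0379 for PSAH1, -0.0133 to 0.39 for PSAK, -0.23 to 0.0183 for PSAL, -0.0129 to 0.32 for PSAO, -0.13 to 0.23 for PSBO2 and -0.30 to 0.0657 for PSBW. The median SE of the 44 estimates was 0.27 (log2), which with 2 libraries a genotype limits the differences that can pass.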

Other observations

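The share of a copy in the summed level of its subunit was read per exon length. PSAH2 made up 66.3% and 67.7% of the PSAH level in wild type and 59.9% and 60.8% in atino80-5, and LHCB4.2 made up 22.9% and 24.1% of the LHCB4 level in wild type and 11.96% and 19.3% in atino80-5, both without overlap. LHCB1.5 made up 32.4% and 35.4% of the LHCB1 level in wild type and 51.5% and 39.7% in atino80-5. The shares of PSAD2, PSBO2 and PSBQ2 in their pairs overlapped or nearly met between genotypes, PSAD2 standing at 45.2% and 43.5% in wild type and 40.2% and 47.8% in atino80-5. These shares were chosen after their values were seen and were not tested. No background was made for shares, and in single gene levels the groups did not overlap for 62.2% of all tested genes.

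The libraries lay in the order wild type replicate 1, wild type replicate 2, atino80-5 replicate 2, atino80-5 replicate 1 for 21 of the 44 genes, rising in 13 and falling in 8. Over all tested genes 15.7% rose and 11.9% fell in this order, which was also chosen after the values were seen.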
